A study of Mus musculus with 4 samples.

Results

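The genes described here encode the proteins that store transmitter in synaptic vesicles and fuse those vesicles, and other secretory vesicles, with the plasma membrane. They form a list of 42 named genes. A probe was counted as a member when its transcript accession matched the entry of a listed gene in a RefSeq gene table. Of the 42 genes, 41 had at least 1 probe and *Syt5* had none, and 15 had more than 1. These gave 57 of the 56605 non-control probes.

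The arrays compared gene expression in the septal nasal mucosa of male C57BL/6 (B6) mice, labelled as olfactory epithelium, between young adult mice at 8 weeks of age and aged mice at 16 months of age. Each age had 2 arrays, and each array carried RNA pooled from 5 mice. Whether the pools of one age shared animals is not stated, although the study counts fewer mice per age for its gene analyses than separate pools would need. A label naming silica and lung on the same samples was not used. Values are normalized intensities of single probes, which are relative levels with no unit, and each member probe is compared between arrays only. In young adult mice 68.1% and 76.8% of the non-control spots stood well above their background, and in aged mice 63.1% and 72.7% did so. Of the 57 member probes, 50 and 54 stood well above background in the young adult pools and 48 and 52 in the aged pools, and 47 did so on all 4 arrays.

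Release of transmitter rests on a small set of interlocking proteins. Transporters load the vesicle, synapsins hold it in reserve, priming factors make it ready, and a vesicle SNARE pairs with target SNAREs on the plasma membrane to pull both membranes together, while complexins hold the assembled SNAREs until a synaptotagmin binds calcium and fusion follows. Olfactory receptor neurons (ORNs) are glutamatergic: their axons end in the glomeruli of the olfactory bulb, whereas their cell bodies, and most of their mRNA, lie in the olfactory epithelium. Several members, among them *Vamp3*, *Vamp8*, *Snap23*, *Stx2*, *Stx3* and *Stx4a*, also serve secretion and membrane traffic in epithelial and gland cells.

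Of the 57 member probes, 4 were called higher in aged mice and 0 were called lower, where a call required P below 0.05 and a nominal false discovery rate (FDR) below 0.25 in limma. The calls were 7.02% of the member probes, beside 1.84% of all probes called higher and 2.65% called lower. *Syt10* and *Synpr*, among these calls, were already listed by the study as upregulated with age on these arrays. The members were chosen with those results known, so the share of calls is not independent support. At an unadjusted P below 0.05 alone, limma gave 10 member probes higher and 2 lower, beside 6.2% of all probes higher and 7.27% lower. The median log2 difference (aged minus young adult) over the 57 probes was 0.18, with quartiles of 0.04 and 0.29, beside a median of 0.01 over all probes. Estimates lay above 0 for 45 member probes (78.9%) and below 0 for 12, beside 51.4% of all probes above 0. Both aged arrays exceeded both young adult arrays for 29 member probes (50.9%), against 24.3% of all probes, and the reverse held for 6 (10.5%), against 22.0%. Among probes well above background on all 4 arrays, the same shares were 57.4% of 47 member probes and 31.3% of 34134 probes. In pooled tissue, a change in the number of cells of a type and a change in RNA per cell cannot be told apart.

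**Figure D1:**
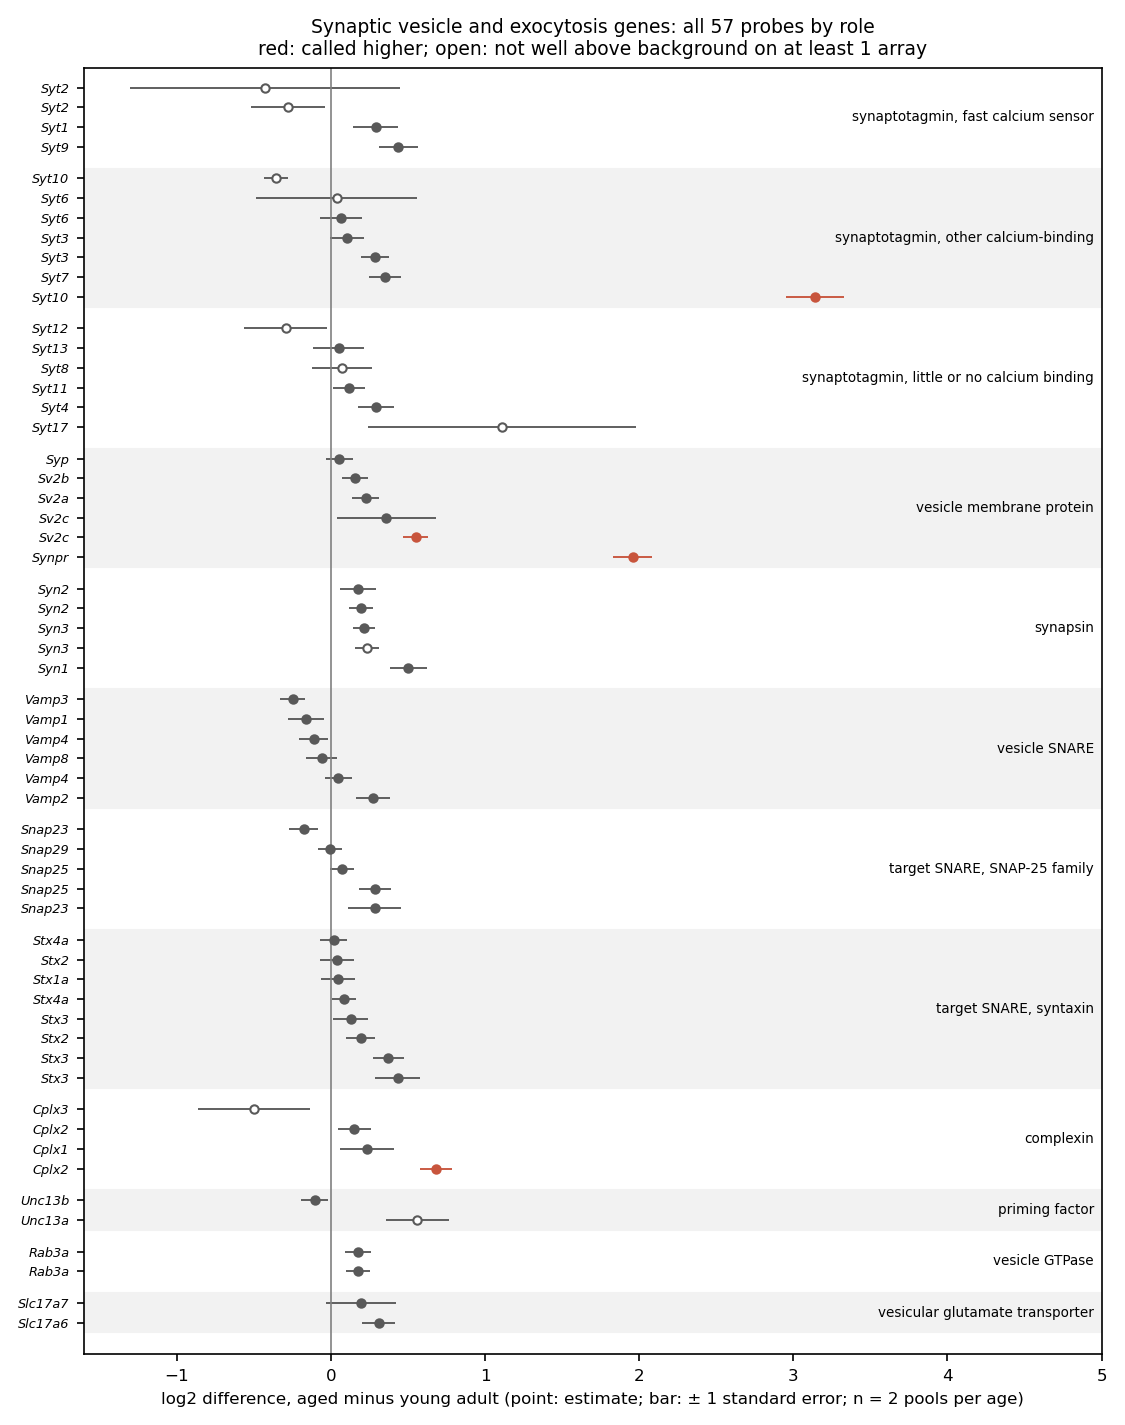
Log2 difference between aged and young adult mice for each of the 57 member probes, grouped by role. Points are limma estimates with bars of 1 standard error (2 pools per age), red marks the 4 probes called higher, and open points were not well above background on at least 1 array; 45 points lie to the right of 0, and those of *Syt10* (3.14) and *Synpr* (1.96) lie farthest out.

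The 4 called probes belonged to *Syt10*, *Synpr*, *Cplx2* and *Sv2c*. *Syt10*, a calcium-binding synaptotagmin described as a sensor for the release of insulin-like growth factor from neurons of the olfactory bulb, has 2 probes on the array. Probe A_51_P318830 read 227 and 304 in the young adult pools and 2443 and 2194 in the aged pools. The aged values were several times the young adult values, with no overlap. The difference was 3.14 on the log2 scale (SE 0.19), an 8.82-fold rise (FDR = 0.160). The other *Syt10* probe, A_52_P77155, read 68.8 and 68.3 in the young adult pools and 54.9 and 52.2 in the aged pools. It was therefore lower on both aged arrays, the opposite direction, with a log2 difference of -0.36 (SE 0.08) that was not called (FDR = 0.266). Its signal stood well above background in each young adult pool and in 1 aged pool. Both probes carry the same transcript accession, and where each lies in the transcript was not analysed here, so the rise in *Syt10* rests on 1 probe.

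*Synpr* encodes synaptoporin, a vesicle membrane protein of the synaptophysin family, and has 1 probe, A_55_P2088223. It read 92.5 and 77.4 in the young adult pools and 339 and 319 in the aged pools. The ages did not overlap, and the rise was 3.89-fold (log2 difference 1.96, SE 0.13, FDR = 0.165). *Cplx2* encodes a complexin, which binds the assembled SNARE complex. Its probe A_55_P1962603 read 12295 and 12701 in the young adult pools and 21445 and 18765 in the aged pools. Again the ages did not overlap, and the rise was 1.61-fold (log2 difference 0.68, SE 0.11, FDR = 0.208). The other *Cplx2* probe, A_55_P2067960, read 39277 and 36696 in the young adult pools and 44785 and 39717 in the aged pools. Here too the aged values were above the young adult values, but closely so, and the log2 difference of 0.15 (SE 0.11) was not called (FDR = 0.607).

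*Sv2c* encodes a glycoprotein of the vesicle membrane that serves botulinum neurotoxin A as a receptor. Probe A_55_P2743867 read 80.7 and 79.7 in the young adult pools and 114 and 121 in the aged pools. The ages did not overlap, and the rise was 1.46-fold (log2 difference 0.55, SE 0.08, FDR = 0.201). Probe A_55_P2187171 of the same gene read 169 and 95.9 in the young adult pools and 168 and 159 in the aged pools. The young adult values spread across the aged ones, and its log2 difference of 0.36 (SE 0.32) was not called (FDR = 0.679). With the probes of each gene averaged on the log2 scale, *Syt10* (log2 difference 1.39, FDR = 0.178) and *Synpr* (1.96, FDR = 0.178) were called higher and met the limits of a mean intensity of 100 and a 1.5-fold change that define a differentially expressed gene (DEG) here. The gene averages of *Cplx2* (0.42, FDR = 0.297) and *Sv2c* (0.45, FDR = 0.425) were not called. These were 2 of 41 member genes called higher and 0 called lower, beside 1.65% of all averaged genes called higher and 2.33% called lower. Both were already on the study's list of genes upregulated with age, so this share is not independent support either.

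**Figure D2:**
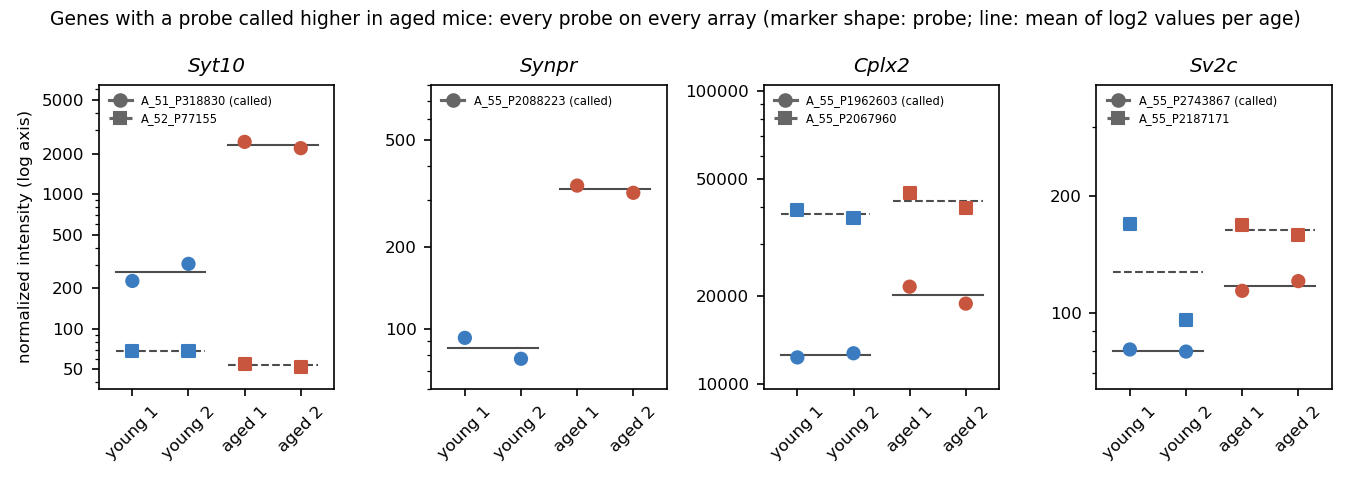
Normalized intensity (log axis) on each of the 4 arrays for every probe of the 4 genes with a called probe, young adult in blue and aged in red; marker shapes separate the probes of a gene, and lines are means of the log2 values per age. Called probes separate by age, while the second probes of *Syt10*, *Cplx2* and *Sv2c* are lower, only slightly higher and overlapping in aged mice.

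These calls came from 2 pools per age. One slide held young adult pool 1 and aged pool 1, and within it the log2 differences of the called probes were 3.43 (*Syt10*), 1.87 (*Synpr*), 0.80 (*Cplx2*) and 0.50 (*Sv2c*); the remaining arrays gave 2.85, 2.04, 0.56 and 0.60. With any 1 array left out, whichever it was, limma called 0 member probes and 0 of all probes, although the log2 difference stayed between 2.93 and 3.35 for *Syt10* and between 1.83 and 2.09 for *Synpr*. The count was also sensitive to how the spread was modelled: with an intensity trend in the variance prior, 19 member probes were called higher and 1 lower, beside 4718 and 4617 of all probes.

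The sequences upstream of *Syt10*, *Synpr*, *Cplx2* and *Sv2c* are shown because each had a probe called higher. RefSeq promoters (GRCm38.p6) were found for 32 of the 42 members, which gave 47 windows of the 250 bases before a transcription start. Each is printed 5′ to 3′ on the strand of its gene, and capitals mark a match to a searched motif. *Syt10* lies on the reverse strand with its window at chr15:89841861-89842110, *Synpr* on the forward strand with a window at chr14:13284530-13284779 before its first start and another at chr14:13453708-13453957 before a start within the gene, *Cplx2* on the forward strand at chr13:54302306-54302555 and *Sv2c* on the reverse strand at chr13:96132578-96132827.
*Syt10*: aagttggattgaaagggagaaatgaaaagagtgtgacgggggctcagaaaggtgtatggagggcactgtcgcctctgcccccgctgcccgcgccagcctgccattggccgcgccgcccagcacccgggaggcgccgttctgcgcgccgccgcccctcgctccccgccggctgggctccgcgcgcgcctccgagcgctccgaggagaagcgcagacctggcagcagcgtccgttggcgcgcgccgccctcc
*Synpr*, first start: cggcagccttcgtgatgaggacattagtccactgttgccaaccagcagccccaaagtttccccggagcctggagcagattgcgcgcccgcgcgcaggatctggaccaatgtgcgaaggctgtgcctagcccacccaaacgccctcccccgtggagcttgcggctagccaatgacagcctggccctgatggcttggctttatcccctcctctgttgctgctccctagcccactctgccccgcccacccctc
*Synpr*, inner start: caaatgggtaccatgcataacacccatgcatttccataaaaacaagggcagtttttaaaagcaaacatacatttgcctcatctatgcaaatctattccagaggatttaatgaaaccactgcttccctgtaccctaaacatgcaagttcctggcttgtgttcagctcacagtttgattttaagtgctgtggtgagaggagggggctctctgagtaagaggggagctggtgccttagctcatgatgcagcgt
*Cplx2*: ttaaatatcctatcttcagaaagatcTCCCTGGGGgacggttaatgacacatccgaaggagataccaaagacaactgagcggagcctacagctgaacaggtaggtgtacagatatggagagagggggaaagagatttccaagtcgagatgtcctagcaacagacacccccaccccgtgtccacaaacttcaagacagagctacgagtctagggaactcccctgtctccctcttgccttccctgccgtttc
*Sv2c*: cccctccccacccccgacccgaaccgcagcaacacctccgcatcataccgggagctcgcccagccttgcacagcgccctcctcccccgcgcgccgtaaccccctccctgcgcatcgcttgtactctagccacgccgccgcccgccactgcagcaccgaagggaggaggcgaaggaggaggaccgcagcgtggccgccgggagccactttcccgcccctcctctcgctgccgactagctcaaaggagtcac

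The windows of *Syt10* and *Sv2c* were rich in G and C (72.0% and 70.8%) and held 32 and 26 CpG dinucleotides, and the first *Synpr* window had 64.0% G and C and 13 CpG. The *Cplx2* window (50.8% and 7) and the inner *Synpr* window (44.4% and 1) had fewer. The median over the 47 member windows was 58.8% G and C with 11 CpG, beside 52.4% and 6 over all 32851 promoters of the table. Each window was searched on both strands for TCCCNNGGG (CCCNNGGGA on the other strand), the core bound by early B-cell factors such as Olf-1, for the cAMP response element TGACGTCA, for the homeodomain core TAATTA and for TTCAGCACC, the left arm of the element bound by the repressor REST. The first was found in 5 member windows (10.6%), of *Cplx2*, *Stx1a*, *Stx2*, *Unc13b* and *Vamp4*, beside 5.60% of all promoters. TGACGTCA and TTCAGCACC were both found in the window of *Syn1* and in no other member window (2.13% each), beside 1.55% and 0.301% of all promoters. TAATTA was found in 2 member windows (4.26%), of *Slc17a6* and *Syt6*, beside 4.84%. None of the motifs occurred in the windows of *Syt10*, *Synpr* or *Sv2c*. A match describes letters in this window and was not tested as a binding site.

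Among the calcium sensors of fast release, *Syt1*, the main sensor of many forebrain synapses, read 12659 and 10240 in young adult mice and 14578 and 13304 in aged mice. The ages did not overlap, but the log2 difference of 0.29 (SE 0.15) was not called (FDR = 0.509). *Syt9*, a related fast sensor, had a log2 difference of 0.44 (FDR = 0.329), and *Syt2* was not well above background on any array with either of its 2 probes. Of the other calcium-binding synaptotagmins, *Syt7*, the slow sensor of asynchronous release, had a log2 difference of 0.35 (FDR = 0.331), and the *Syt3* and *Syt6* probes lay between 0.04 and 0.29. Of the 6 synaptotagmins with little or no calcium binding, each with 1 probe, 0 were called, and their median difference was 0.10. *Syt17* showed the widest spread within an age among them, at 33.2 and 53.1 in young adult mice and 192 and 42.7 in aged mice. That pattern came from aged pool 1 alone, and the ages overlapped (log2 difference 1.11, SE 0.87, FDR = 0.640). The *Syt17* probe stood well above background on 1 array of each age, and that of *Syt8* on 1 young adult array only.

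All 6 probes for proteins of the vesicle membrane had estimates above 0, with a median of 0.29, beside 51.4% of all probes above 0. Of the 6, 2 were called higher (*Synpr*, whose rise the study had listed, and *Sv2c*), beside 1.84% of all probes. *Syp*, which encodes synaptophysin, the abundant vesicle protein used to mark presynaptic terminals, read 8676 and 9121 in young adult mice and 9556 and 8921 in aged mice. The ages overlapped, and the log2 difference was 0.05 (SE 0.09, FDR = 0.819). *Sv2a* and *Sv2b*, relatives of *Sv2c*, had differences of 0.23 (FDR = 0.421) and 0.16 (FDR = 0.522), each without overlap between ages.

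The synapsins coat vesicles and tether them to the cytoskeleton. All 5 synapsin probes were higher on both aged arrays than on both young adult arrays, as were 24.3% of all probes, and 0 of the 5 were called. *Syn1* read 2051 and 1810 in young adult mice and 2908 and 2566 in aged mice. With no overlap, its log2 difference was 0.50 (SE 0.12), and its FDR of 0.288 missed the threshold. The *Syn2* probe A_51_P346491 read 855 and 885 in young adult mice and 980 and 1015 in aged mice, and probe A_52_P62444 read 1592 and 1363 against 1614 and 1720. The ages were separate for both, with log2 differences of 0.20 (FDR = 0.424) and 0.18 (FDR = 0.593), the second falling to 0.02 within the shared slide. *Syn3* gave 0.21 and 0.23 with its 2 probes (FDR = 0.379 and 0.365).

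Of the 6 probes for vesicle SNAREs, 2 had estimates above 0 and 4 below, beside 51.4% of all probes above 0. The median of the 6 was -0.08. *Vamp2*, the vesicle SNARE of fast synaptic release, read 7600 and 6594 in young adult mice and 8512 and 8596 in aged mice. These did not overlap, and the log2 difference of 0.27 (SE 0.11) was not called (FDR = 0.420). *Vamp3*, the broadly expressed cellubrevin, read 8845 and 9400 in young adult mice and 7690 on both aged arrays, and so lay lower in aged mice without overlap (log2 difference -0.25, SE 0.08, FDR = 0.365). *Vamp1* (-0.16, FDR = 0.614) and *Vamp8* (-0.06, FDR = 0.829) were not called, and the 2 *Vamp4* probes differed in sign (-0.11 and 0.05).

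On the target side, *Snap25*, the partner of *Vamp2* in neurons, read 37247 and 35894 in young adult mice and 38377 and 38485 in aged mice with probe A_55_P2051849. Probe A_52_P165961 read 596 and 676 in young adult mice and 754 and 793 in aged mice. Neither probe overlapped between ages, and the log2 differences of 0.07 (SE 0.08) and 0.28 (SE 0.11) were not called. The 2 probes of *Snap23*, its counterpart outside neurons, differed in sign, at 0.29 (FDR = 0.561) and -0.18 (FDR = 0.524), each without overlap between ages. All 8 syntaxin probes had estimates above 0, beside 51.4% of all probes. The median of the 8 was 0.11, and 0 were called. *Stx1a*, the syntaxin of the presynaptic membrane, read 1666 and 1882 in young adult mice and 1747 and 1918 in aged mice. The ages overlapped (log2 difference 0.05, SE 0.11, FDR = 0.877). *Stx3*, a syntaxin of ribbon synapses and apical membranes, gave 0.13, 0.43 and 0.37 with its 3 probes (FDR = 0.673, 0.373 and 0.308).

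*Cplx1*, the other main complexin of the brain, read 98.0 and 86.9 in young adult mice and 95.4 and 124 in aged mice. The ages overlapped, and the difference of 0.24 (SE 0.17, FDR = 0.623) came from aged pool 2, since it was -0.04 within the slide that held both ages. *Cplx3* had a difference of -0.50 with a wide error (SE 0.36, FDR = 0.619) and was well above background on 1 array of each age. *Unc13a*, which opens syntaxin during priming, read 42.4 and 59.9 in young adult mice and 75.6 and 73.0 in aged mice. These did not overlap, but the probe was well above background on 1 array of each age and was not called (log2 difference 0.56, SE 0.21, FDR = 0.397). *Unc13b* was lower on both aged arrays, without overlap, at a difference of -0.10 that was not called (FDR = 0.660).

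*Rab3a*, the GTPase that marks vesicles ready for docking, gave the same difference with both probes. Probe A_55_P1956557 read 12066 and 12241 in young adult mice and 13418 and 14071 in aged mice, and probe A_51_P110629 read 958 and 973 against 1135 and 1048. Neither overlapped between ages, and the log2 difference was 0.18 for each (FDR = 0.464 and 0.498). *Slc17a6*, the vesicular glutamate transporter of ORNs, read 3316 and 3051 in young adult mice and 3738 and 4159 in aged mice. The ages were separate, with a log2 difference of 0.31 (SE 0.10, FDR = 0.373) that was not called. *Slc17a7*, the transporter of many cortical neurons, read 71.7 and 49.8 in young adult mice and 73.5 and 63.5 in aged mice, and its ages overlapped (log2 difference 0.19, SE 0.23, FDR = 0.749).

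**Figure D3:**
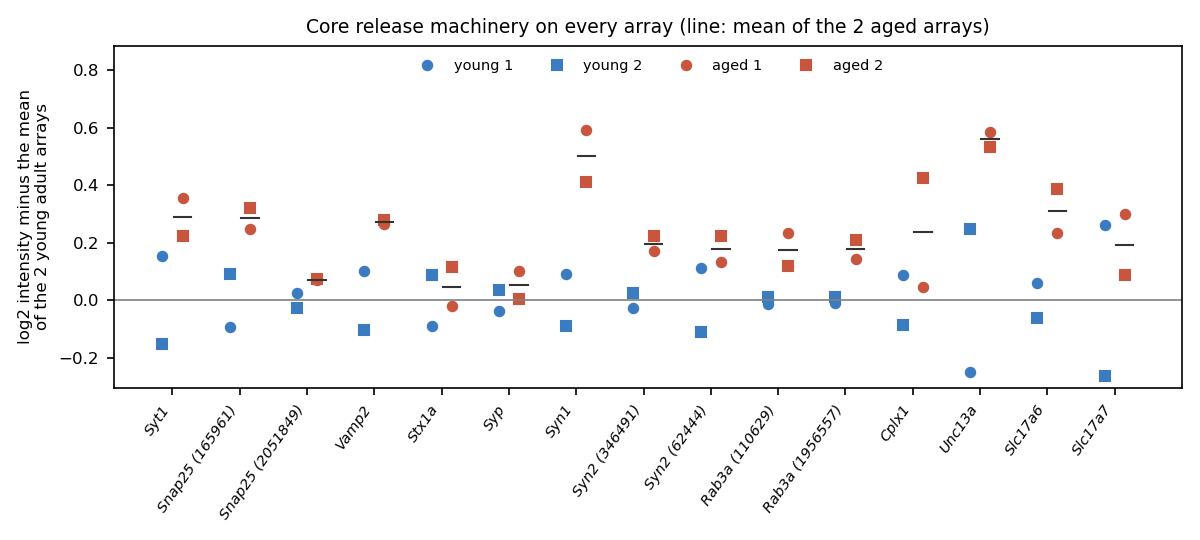
Log2 intensity of the core release genes on each array, minus the mean of the 2 young adult arrays; circles and squares are pools 1 and 2, blue is young adult, red is aged, and short lines are means of the aged arrays. *Syn1* (0.50) and *Unc13a* (0.56) lie highest, while *Stx1a*, *Syp*, *Cplx1* and *Slc17a7* overlap between ages.

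The rest of the exocytosis pathway was represented by 110 further genes with 181 probes. Of these probes, 3 were called higher (1.66%) and 1 lower (0.552%), beside 1.84% and 2.65% of all probes. Their median log2 difference was 0.03, and both aged arrays were above both young adult arrays for 31.5% and below for 17.7%, beside 24.3% and 22% of all probes. The calls were *Stxbp6*, a SNARE-binding protein (0.53, FDR = 0.210), *Syngr1*, a vesicle membrane protein (0.44, FDR = 0.231), *Svop*, a vesicle protein related to the SV2 family (0.50, FDR = 0.232), and *Syt15*, an atypical synaptotagmin (-1.12, FDR = 0.177). The other *Syngr1* probe, A_51_P270741, went the opposite way, at 5123 and 5348 in young adult mice and 4843 and 4589 in aged mice, without overlap and not called (log2 difference -0.15, FDR = 0.535). The called *Syt15* probe read 209 and 178 in young adult mice and 91.9 and 85.8 in aged mice, without overlap, and the other *Syt15* probe stood at background throughout. By role, medians ranged from -0.07 for the Rab3 and Rab27 family (16 probes) to 0.18 for the factors that take SNARE complexes apart (7 probes) and 0.21 for the cargo of dense-core granules (8 probes); 0 probes in these 3 groups were called. The active zone proteins, with 29 probes, had a median of 0.00 and 0 calls.

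Markers of the cells that the samples could hold were measured on the same arrays, where 1.84% of all probes were called higher and 2.65% lower. All 24 probes of the mature ORN markers were higher on both aged arrays than on both young adult arrays, beside 24.3% of all probes, with a median log2 difference of 0.24, and 4 were called higher (2 of *Kirrel2*, 1 of *Stoml3* and 1 of *Cngb1*). Their summed intensity was 648231 and 639921 in young adult mice and 724965 and 730901 in aged mice, and the brightest was *Omp* (log2 difference 0.15, FDR = 0.539). Of 18 probes of the immature ORN markers, 4 were called lower and 0 higher (1 of *Gap43*, 2 of *Dpysl3* and 1 of *Stmn1*), with a median of -0.27 and sums of 187070 and 181575 against 163589 and 162229. The probe with the highest mean over the 4 arrays was one of *Ncam1*, which was higher on both aged arrays, unlike the list's median, and was not called (log2 difference 0.17, FDR = 0.507). Of 16 probes of Schwann and olfactory ensheathing cell markers, 9 were called lower and 0 higher, with a median of -0.58 and sums of 60355 and 60810 against 43068 and 44229; the brightest was *Fabp7*. The part of these shifts in the member values was not tested.

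**Figure D4:**
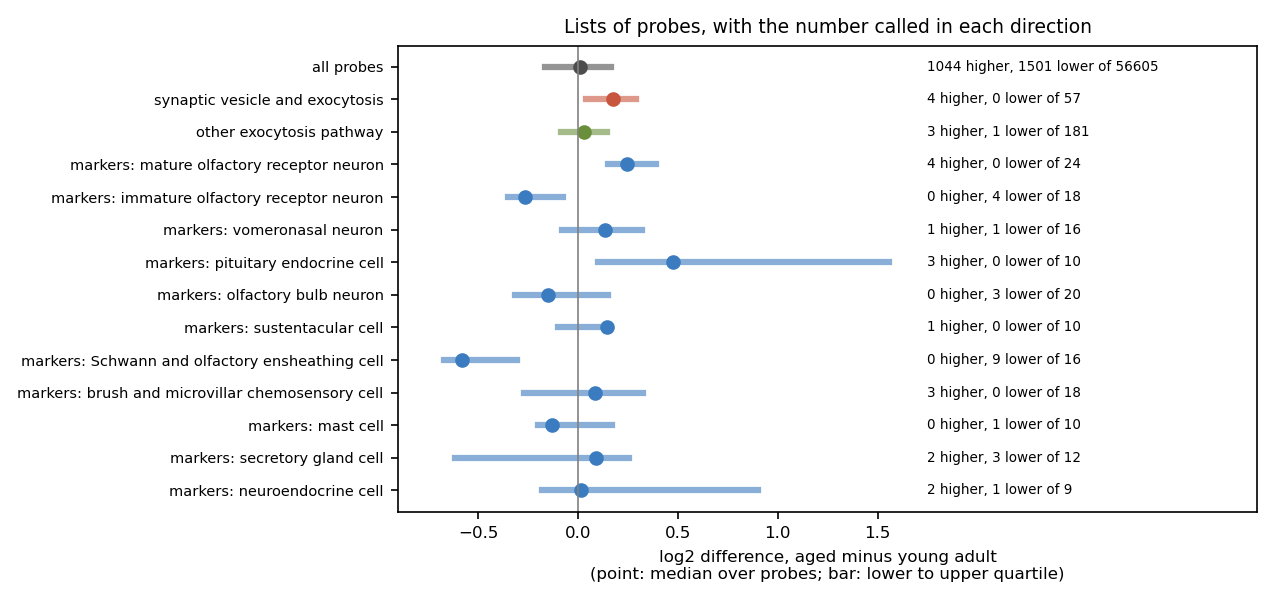
Median log2 difference between aged and young adult mice (point) with the lower and upper quartiles (bar) over the probes of each list, and the number of probes called in each direction at the right. The synaptic vesicle and exocytosis list has a median of 0.18, beside 0.24 for mature ORN markers, -0.27 for immature ORN markers and 0.03 for the other pathway genes.

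Neighbouring neural and endocrine tissue was represented as well, to be read beside the 1.84% of all probes called higher and 2.65% called lower. Of 10 pituitary probes, 3 were called higher (*Prl*, *Gh* and *Cga*), 4 stood at background throughout (*Tshb*, *Fshb*, *Pou1f1* and *Tbx19*), and the summed intensity was 1244 and 1307 in young adult mice and 9873 and 9371 in aged mice. *Prl*, the brightest, read 282 and 238 in young adult mice and 8155 and 7969 in aged mice, a log2 difference of 4.96 (FDR = 0.110). *Gh* read 37.3 and 37.1 in young adult mice, where it was not well above background, and 326 and 336 in aged mice, so no fold is given for it. *Cga* read 37.1 and 22.5 in young adult mice, where it was not well above background, and 107 and 78.7 in aged mice. It stood well above background on 1 aged array only, and no fold is given for it either. Of 20 olfactory bulb probes, 3 were called lower (*Pcp4* and the dim probes of *Th* and *Sp9*) and 0 higher. The median of the 20 was -0.15, with sums of 21006 and 21171 against 20569 and 21661, and the brightest was *Sp8*. Both aged arrays exceeded both young adult arrays for 3 of the 20 (15%), beside 24.3% of all probes. The reverse held for 8 (40%), beside 22.0%. The 3 were *Tbx21* (log2 difference 0.42, FDR = 0.349), 1 probe of *Eomes* (0.47, FDR = 0.356) and *Sp8* (0.14, FDR = 0.561), none of them called. The *Tbx21* probe stood well above background on 1 aged array only, beside both young adult arrays. The other *Eomes* probe overlapped between ages (-0.01) and stood well above background on 1 array. The bulb markers *Neurod6* and *Sp9* and the called *Th* probe stood at background throughout. The other *Th* probe overlapped between ages and was not called (log2 difference -0.13, FDR = 0.715). The vomeronasal list had 1 probe called higher (*H2-M10.3*) and 1 lower (*Calr4*) of 16, and its median was 0.13. How far any of these cells contributed to the *Syt10* and *Synpr* values was not tested.

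The other cell types gave mixed results, beside 1.84% of all probes called higher and 2.65% called lower. Of 9 neuroendocrine probes, 2 were called higher (*Calca* and *Resp18*) and 1 lower (*Cck*), with a median of 0.02. Of 18 probes of brush and microvillar cells, 3 were called higher (*Trpm5*, *Chat* and *Ascl3*) and 0 lower. The median of the 18 was 0.09, with 9 estimates above 0 and 9 below. The other *Chat* probes overlapped between ages, with log2 differences of -0.22 and -0.30 that were not called. Secretory gland markers had 2 probes higher (*Bpifb9b* and *Muc5b*) and 3 lower (*Pip*, *Dcpp2* and *Dcpp3*) of 12. Sustentacular cells had 1 higher (*Cyp1a2*) of 10, and mast cells 1 lower (*Kit*) of 10.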

How the data were processed

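Septal nasal mucosa RNA was hybridized to 4 one-color Agilent arrays, with 2 for each age. The authors extracted spots with Feature Extraction 11.0.1.1 and deposited, for each array, the median intensity of each spot and of its local background, a processed intensity and flags, without normalization between arrays. The deposited value table equalled the processed intensity in all 62976 rows of each array. Mean spot signals were not among the columns, so median signals were taken.

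The normexp method with an offset of 0 corrected the background (limma 3.58.1, R 4.3.3). Control spots and outlier-flagged spots (88 to 118 per array) were then dropped, spots of one probe were averaged, and log2 values were quantile normalized. Accessions without versions matched a RefSeq table (GRCm38.p6) for 32994 of 56605 probes. Ages were compared with lmFit and eBayes on all 4 arrays without covariates, with Benjamini-Hochberg adjustment over all 56605 probes. With 2 pools against 2, an exact two-sided permutation test cannot go below P = 0.333, and limma's P measures only the spread between pools, which understates that between animals if pools shared mice. The FDR of 0.25 is nominal and may be exceeded: in simulated data that took each probe's observed spread as its true spread, false calls passed that share, and the pass criterion was afterwards changed to spreads drawn from the fitted prior.

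Values per array are given for called members, for core release genes, *Syt10* and *Synpr*, and for every probe of member genes with only some probes called. Other members, and the uncalled probes of pathway and marker genes, were named after their values were seen. The members and lists were chosen with earlier results of these data known, among them the rises of *Syt10* and *Synpr* that the study lists. Alternatives were other offsets, no background correction, processed intensities, 75th percentile scaling, cyclic loess, dim or flagged probes left out or kept, an intensity trend, the replicate number as a block, 1 slide alone, each array left out, gene averages and other thresholds.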

Additional observations from a re-analysis of the deposited data

How the results depend on the processing

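The median log2 difference of the member probes lay between 0.14 and 0.22 under every alternative that gave one, and its excess over the median of all probes between 0.13 and 0.19. The counts of calls moved more, and the cause was not tested unless stated. For members, the 4 probes called higher and 0 called lower became 10 and 1 with an offset of 50, 8 higher without background correction, 13 and 1 with quantile normalized processed intensities, 18 and 2 when probes were tested only where both pools of at least 1 age stood well above background (a probe can enter through the age in which it is higher, as *Syt10* probe A_52_P77155 did, so these counts support nothing), and 19 and 1 with an intensity trend; averaging probes gave 2 genes higher. For all probes, the 1044 higher and 1501 lower became 1628 higher with an offset of 16, 2629 and 3139 with an offset of 50, 2238 and 2832 without background correction, 2838 and 3267 with processed intensities, 4222 and 4537 above background, 4718 and 4617 with the trend, and 448 and 687 when a mean of 100 and a 1.5-fold change were required. At an FDR below 0.10 or 0.05, 0 member probes and 0 of all probes were called, since the smallest FDR was 0.101. With the replicate number as a replicate block, 0 member probes and 0 of all probes were called, with an FDR of 0.412 for each called member; the pools numbered 1 also share a slide, whereas those numbered 2 share only the number (correlation of same-numbered deviations -0.0759), and 1 residual degree of freedom is left by that fit. Leaving out an array in turn gave 0 to 0 calls in each direction, for members and for all probes, with FDR between 0.393 and 0.660 for the called members; the single array left in an age is then assumed to vary like the other age. The slide as a random block could not be fitted. Within the slide that held both ages, 8 of the 57 member probes had the opposite sign, none of them called. Alternatives were followed probe by probe only for the called members, the other probes of their genes, the core genes and the called pathway probes. Among these, *Cplx1* (-0.039) and *Sv2c* probe A_55_P2187171 (-0.0086) reversed within that slide, and leaving out an array reversed *Stx1a* (-0.039 without young adult pool 1 and -0.020 without aged pool 2, highest 0.14), *Slc17a7* (-0.070 without young adult pool 2, highest 0.46) and the same *Sv2c* probe (-0.048 without young adult pool 2, highest 0.77); none of these was called. Of the 415 single-probe values under alternatives, 340 kept their direction and their side of the threshold or, without a test, moved by less than 1 standard error; 40 lost a call, 22 gained one, 7 moved further without a test and 6 reversed. *Syn1* gained a call under 6 alternatives. Signal over background limits *Syt2* and *Syt12*, which have no firm level on any array.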
